A study of Mus musculus with 6 samples.

Results

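The mitochondrial ribosomal proteins are the protein subunits of the ribosome that works inside mitochondria. They were picked from the deposited expression table by symbol, as every gene named Mrpl (large subunit) or Mrps (small subunit) followed by a digit, with pseudogenes left out. The pattern matched 82 symbols, and the 5 pseudogenes among them were dropped, 4 of which end in -ps and a further digit. That left 77 of the 53735 genes in the table, 48 with a large subunit symbol and 29 with a small subunit symbol. Dropping only the symbol that ends in -ps itself would have kept 81. The set was put forward with differences between these liver and bone marrow libraries already known, so its counts and differences describe these libraries and are no independent support.

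The libraries came from leukemia stem cells, the leukemia cells able to regrow the disease, taken from the liver (3 libraries) and the bone marrow (3 libraries) of untreated C57 mice 13 days after leukemia cells were transplanted. The labels give every library as male and name neither the leukemia model, the age of the mice nor the markers used to isolate the cells. They call the 3 libraries from each tissue technical replicates, so any p-value here reflects library-to-library spread alone. How much of that spread is technical is not known, since sex-linked transcripts, given next, went against the labels.

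Depth was 9.73 to 13.8 M reads in liver and 15.4 to 18.5 M reads in bone marrow. Sex-linked transcripts went against the labels. Liver libraries held 1.42 to 6229 normalized counts of Xist, the RNA of the silenced X chromosome, and bone marrow libraries 4.28 to 4860, while 4 Y-linked genes summed to 0 to 2675 in liver and to 145 to 2987 in bone marrow. In both tissues replicate 1 was high in Xist and low in the Y-linked genes, replicate 2 was the reverse and replicate 3 held both. Replicates 1 and 2 can thus not be technical replicates of the same sample, and the number of independent sources is not known. Whether replicate 3 mixes the sources of replicates 1 and 2 was not tested. Results are therefore also given without each library in turn. The 10 leukemia stem and progenitor markers, among them Kit, Cd34, Ptprc and Hoxa9, were detected. They summed to 19778 to 21124 normalized counts in liver and 19787 to 22189 in bone marrow. Singly, 5 were higher and 5 lower in liver. Every liver library was above every bone marrow library for Hoxa9 and below for Cd34 and Spn, orders that held for 11.4% and 10.9% of all genes tested. Cd34 had 1063, 1048 and 1143 normalized counts in liver, against 2148, 1179 and 1551 in bone marrow. None of the 10 had an adjusted p under 0.05 in limma. Of 12 hepatocyte markers 7, including Alb, Ttr, Fgb and Cps1, were at 0 in all 6 libraries.

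Mitochondria keep a small genome whose protein products are core subunits of the respiratory chain and the ATP synthase. These are made by a ribosome whose RNAs come from that genome, while its proteins are encoded in the nucleus, made in the cytosol and imported. Many of the proteins have bacterial counterparts and others occur only in mitochondria. The small subunit reads the messenger RNA and the large subunit joins the amino acids and threads the chain towards the inner membrane. Growth of acute myeloid leukemia cells has been shown to depend on mitochondrial translation.

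Promoter sequences are shown for 5 genes: Mrpl49, Mrpl42, Mrpl18 and Mrps24, which had among the largest differences between tissues, and Mrpl52, which had the most negative one. They are RefSeq windows on GRCm38.p6, from 250 bases before to 50 bases after the transcript start, written 5′ to 3′ on the gene's strand. Capitals mark matches, on either strand, to motifs of factors that are known to act at promoters of mitochondrial genes or at many promoters: GCATGCG and TGCGCA (NRF1 and a shorter NRF1 core), CCGGAAG (ETS family, which includes GABPA), AGATGGC (YY1), CACGTG (E-box) and CCAAT (NF-Y).
Mrpl49, chr19:6057706-6058005, minus strand: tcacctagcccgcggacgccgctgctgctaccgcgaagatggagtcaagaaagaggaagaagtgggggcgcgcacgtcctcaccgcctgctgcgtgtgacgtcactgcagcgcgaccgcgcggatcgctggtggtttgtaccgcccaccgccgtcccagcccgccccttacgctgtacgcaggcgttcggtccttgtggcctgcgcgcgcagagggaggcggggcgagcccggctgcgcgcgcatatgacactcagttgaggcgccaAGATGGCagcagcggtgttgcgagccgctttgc
Mrpl42, chr10:95501900-95502199, minus strand: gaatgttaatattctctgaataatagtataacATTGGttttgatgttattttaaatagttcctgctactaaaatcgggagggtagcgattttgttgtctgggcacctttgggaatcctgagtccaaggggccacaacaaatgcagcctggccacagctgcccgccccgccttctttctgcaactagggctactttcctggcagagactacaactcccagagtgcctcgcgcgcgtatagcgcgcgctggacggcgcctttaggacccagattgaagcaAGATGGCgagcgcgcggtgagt
Mrpl18, chr17:12916042-12916341, minus strand: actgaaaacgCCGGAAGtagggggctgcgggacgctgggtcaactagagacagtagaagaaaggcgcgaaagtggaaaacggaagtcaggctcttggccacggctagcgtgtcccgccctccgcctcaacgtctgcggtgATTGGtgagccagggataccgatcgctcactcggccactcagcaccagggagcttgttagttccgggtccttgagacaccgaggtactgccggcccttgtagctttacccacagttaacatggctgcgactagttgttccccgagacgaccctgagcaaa
Mrps24, chr11:5707652-5707951, minus strand: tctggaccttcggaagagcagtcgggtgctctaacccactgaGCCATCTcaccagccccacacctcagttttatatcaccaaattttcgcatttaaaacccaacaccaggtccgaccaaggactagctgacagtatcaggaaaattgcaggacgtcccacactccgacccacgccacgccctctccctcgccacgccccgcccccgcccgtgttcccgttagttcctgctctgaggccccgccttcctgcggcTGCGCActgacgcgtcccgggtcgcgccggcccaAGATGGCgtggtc
Mrpl52, chr14:54426659-54426958, plus strand: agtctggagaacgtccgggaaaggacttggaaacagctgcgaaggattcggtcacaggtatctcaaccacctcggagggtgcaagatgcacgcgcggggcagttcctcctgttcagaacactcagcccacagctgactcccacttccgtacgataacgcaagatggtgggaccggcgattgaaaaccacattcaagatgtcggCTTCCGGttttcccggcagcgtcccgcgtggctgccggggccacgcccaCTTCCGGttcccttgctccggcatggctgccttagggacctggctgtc
In the Mrpl49 window the marked letters are a YY1 match at base 17 after the start, and in that of Mrpl42 a CCAAT match at base -218 and a YY1 match at base 28. The Mrpl18 window holds an ETS match at base -240 and a CCAAT match at base -110, and its RefSeq start lies inside the extent that GENCODE M21 gives the gene. Mrps24, whose RefSeq start also lies inside that extent, has YY1 matches at bases -208 and 37 and a short NRF1 match at base 3. Mrpl52 has ETS matches at bases -47 and 2.

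RefSeq windows were found for 68 of the 77 genes, 74 windows in all. CCGGAAG stood in 33.8% of these windows, against 17.5% of the 11560 windows of tested genes and 8.86% of all 32851 windows. The short NRF1 core TGCGCA stood in 28.4% of mitochondrial ribosomal protein windows, 13.6% of tested genes' windows and 7.76% of all. The longer GCATGCG was in 10.8%, 6.38% and 3.58% of the same windows. AGATGGC was in 16.2% of mitochondrial ribosomal protein windows, 7.19% of tested genes' windows and 6.4% of all. CACGTG, with 9.46%, 10.1% and 7.15%, and CCAAT, with 40.5%, 38.0% and 37.4%, stood at about the share of tested genes. A long NRF1 match can overlap a short one. Large subunit windows held GCATGCG in 14.9% and CCGGAAG in 29.8%, against 3.7% and 40.7% of small subunit windows. The short NRF1 core TGCGCA had the reverse order to GCATGCG, with 23.4% of large and 37.0% of small subunit windows. The subunits were not tested against each other. These are matches of letters and were not tested as binding sites.

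Mitochondrial ribosomal protein transcripts were slightly more abundant in liver. Of the 76 genes tested, 72 had a positive log2 difference (liver minus bone marrow), or 94.7%, against 48.4% of all 14298 genes tested. The median log2 difference was 0.15, a 1.11-fold higher level in liver, and the range ran from -0.16 to 0.41, or 0.893-fold to 1.33-fold. The median over all genes tested was -0.01. For 32 genes (42.1%) the lowest liver library exceeded the highest bone marrow library, which held for 11.4% of all genes tested, and for 0 genes the order was the reverse, against 10.9%.

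None of these differences passed the test taken gene by gene. With limma and Benjamini-Hochberg adjustment over all genes tested, 0 were higher and 0 lower at an adjusted p under 0.05, where the shares over all genes tested were 0.42% and 0.594%. At an unadjusted p under 0.05, 23 of the 76 (30.3%) were higher and 0 were lower, against 7.65% and 8.04% of all genes. Fitted to the recovered reads, edgeR called 0 after adjustment in either direction (0.371% of all genes higher, 0.574% lower). DESeq2 called 3, Mrpl18, Mrpl42 and Mrpl49 (1.97% of all genes higher), and limma with a replicate term called 1, Mrpl18 (1.41% of all genes higher). With weights per library, limma called 31 (11% of all genes higher). Those weights were largest for replicate 3, 6.32 in liver and 2.17 in bone marrow, the libraries that held both sex-linked signals. For 74 of the 76 genes the 95% interval of the difference lay within a 1.5-fold change in either direction. In bulk RNA, a larger share of cells with high levels and more RNA in each cell cannot be told apart.

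**Figure D1:**
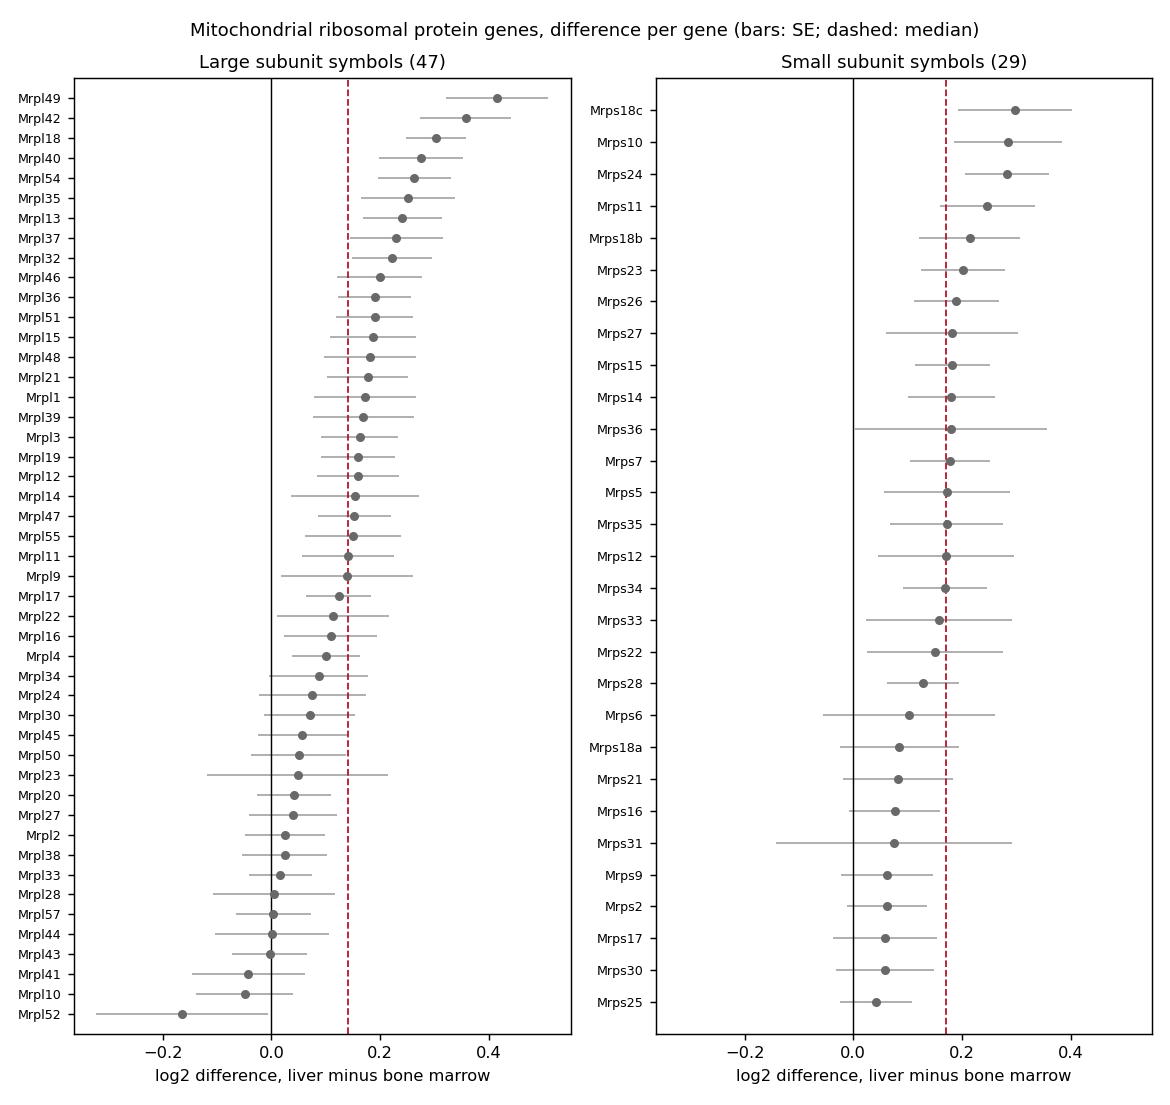
Each point is the log2 difference of 1 gene (horizontal axis, liver minus bone marrow, log2 of normalized count plus 1) with its standard error from limma as a bar, for 47 large subunit and 29 small subunit symbols, and the dashed line is the median of each panel. All but 4 points, Mrpl43, Mrpl41, Mrpl10 and Mrpl52, lie above 0.

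Summed over the large subunit, liver libraries held 49295, 50425 and 50726 normalized counts, against 45914, 46075 and 45462 in bone marrow, which gives 50148 ± 755 in liver and 45817 ± 318 in bone marrow (SD, n = 3 each). The small subunit summed to 23633, 25043 and 24878 in liver and to 21715, 22093 and 22310 in bone marrow, or 24518 ± 771 and 22039 ± 301 (SD, n = 3 each). Neither sum overlapped between tissues, and the ratios of the means were 1.09 and 1.11. The whole set took 0.544% ± 0.00904 of liver reads and 0.491% ± 0.00216 of bone marrow reads (SD, n = 3 each).

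The balance of the subunits was close in both tissues. The large over small ratio of sums was 2.09, 2.01 and 2.04 in liver and 2.11, 2.09 and 2.04 in bone marrow, and these ranges overlapped. The median log2 difference was 0.14 for 47 large subunit genes, of which 43 were positive, and 0.17 for 29 small subunit genes, of which 29 were positive. The lowest liver library exceeded the highest from bone marrow for 21 large subunit genes (44.7%) and for 11 small subunit genes (37.9%). Over all genes tested this share was 11.4%. The difference between the medians, -0.03 for large minus small, had the other sign, 0.03, with library weights, so no order of the subunits is given. Liver replicate 1 stood nearest to bone marrow: relative to the bone marrow mean the median gene lay at a log2 of 0.11 in liver replicate 1, 0.17 in replicate 2 and 0.17 in replicate 3, against -0.01, 0.02 and -0.01 in bone marrow. That library was the lowest of the 3 from liver for 43 of the 76 genes and the highest for 20.

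**Figure D2:**
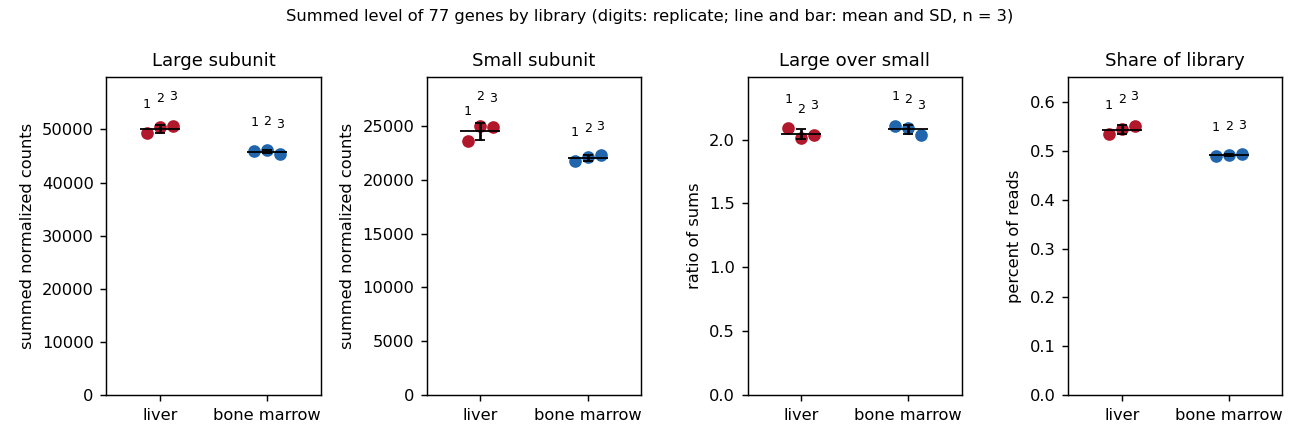
The panels show, for each library (points, with the replicate number above), the summed normalized counts of the large and small subunit genes, their ratio and their share of the library in percent, with the mean as a line and the SD as a bar (n = 3). Liver sums and shares lie above those of bone marrow in every library, and the ratios overlap.

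Placing genes by known structure left these values nearly the same. Mrps30 and Mrps18a carry small subunit symbols, but their proteins sit in the large subunit, and the Mrps36 protein is now known as a subunit of the oxoglutarate dehydrogenase complex. With that placement the median log2 difference was 0.14 for 49 large subunit genes and 0.17 for 26 small subunit genes. Genes with bacterial counterparts had a median of 0.14 (46 of 47 positive) and mitochondria-specific ones 0.17 (24 of 27 positive).

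Among large subunit genes, Mrpl18 had the smallest p. It encodes a protein of the central protuberance, the part of the large subunit that faces the head of the small one, and lies at chr17:12911349-12916345 on GRCm38. Its level was 2006, 2034 and 1962 normalized counts in liver, against 1614, 1655 and 1594 in bone marrow. The groups were far apart relative to their spread (2000 ± 36.5 in liver and 1621 ± 31.1 in bone marrow, SD, n = 3 each). The log2 difference was 0.30 (SE 0.055), with an adjusted p of 0.0579 in limma, 0.04 in limma with a replicate term and 0.00209 in DESeq2. The gene shares exon bases with Tcp1, a cytosolic chaperonin subunit transcribed from the other strand, which stood at 7092, 7593 and 7477 in liver and 6669, 6704 and 6665 in bone marrow. The kit does not mark strand, so reads of the shared bases cannot be assigned by strand, and the part of Tcp1 reads in the Mrpl18 values was not tested.

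Other genes whose proteins were placed in the central protuberance ran from a log2 difference of -0.16 for Mrpl52, the most negative of the set and described further on, to 0.28 for Mrpl40. Mrpl40, mitochondria-specific and at chr16:18872018-18876862, had 919, 895 and 918 normalized counts in liver, against 725, 723 and 812 in bone marrow. The groups did not overlap (SE 0.077, adjusted p 0.153). Mrpl46, also of the protuberance, had 800, 840 and 831 in liver and 670, 748 and 737 in bone marrow, again without overlap. Mrpl48 had 1014, 1110 and 1152 in liver and 966, 1029 and 895 in bone marrow, which overlapped. Mrpl38, of the same region, had 861, 935 and 863 in liver and 928, 851 and 836 in bone marrow, with a log2 difference of 0.02.

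Mrpl49 had the largest difference of the set. This mitochondria-specific large subunit gene lies at chr19:6053622-6057785. Liver libraries had 702, 843 and 800 normalized counts of it, and bone marrow libraries 573, 613 and 568. The lowest liver library was above the highest bone marrow library, with means of 782 ± 71.9 in liver and 585 ± 24.7 in bone marrow (SD, n = 3 each). The log2 difference was 0.41 (SE 0.094, adjusted p 0.0981 in limma). Without liver replicate 1, its lowest liver library, the difference was 0.49 and passed the threshold with an adjusted p of 0.0368, the only gene of the set to do so in any fit that left out 1 library (1.45% of all genes were called higher in that fit). Syvn1, an enzyme of endoplasmic reticulum protein degradation that shares exon bases with Mrpl49, had a log2 difference of -0.25.

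Mrpl42, mitochondria-specific and at chr10:95480805-95501940, came next. Liver libraries held 1575, 1609 and 1726 normalized counts, against 1347, 1347 and 1147 in bone marrow. The tissues did not overlap, and bone marrow replicate 3 was the lowest library. The log2 difference was 0.36 (SE 0.084, adjusted p 0.106 in limma). Mrpl54, a further mitochondria-specific large subunit gene, at chr10:81264713-81266934, was even among the liver libraries, with 1061, 1038 and 1055 in liver against 891, 900 and 839 in bone marrow. Its log2 difference was 0.26 (SE 0.067, adjusted p 0.125).

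Genes of the catalytic core, the exit tunnel and the factor-binding stalk lay mostly at or below the set's median of 0.15. Of those given here, only Mrpl3 and Mrpl12 lay above it, at 0.16 each, and no test compared these places with the rest. Mrpl3 and Mrpl2 encode proteins near the peptidyl transferase centre, where amino acids are joined. Mrpl3 had 1148, 1163 and 1270 normalized counts in liver, against 1035, 1066 and 1097 in bone marrow, without overlap, while Mrpl2 had 1061, 1002 and 1069 in liver and 1001, 984 and 1096 in bone marrow, with overlap. Mrpl4 and Mrpl22 line the tunnel through which the new chain leaves, and their log2 differences were 0.10 and 0.11. Around the exit, Mrpl17 had 0.12, Mrpl23 0.05, Mrpl24 0.07 and Mrpl47 0.15. Mrpl45, whose protein ties the tunnel exit to the inner membrane, had 837, 908 and 889 in liver and 781, 903 and 851 in bone marrow. These overlapped, and the log2 difference was 0.06 (adjusted p 0.796). Mrpl12, part of the stalk that contacts translation factors, had 1755, 1505 and 1640 in liver and 1521, 1436 and 1424 in bone marrow. Liver replicate 2 lay within the bone marrow range, and the log2 difference was 0.16 (adjusted p 0.363). Mrpl10, which anchors that stalk, had 778, 934 and 814 in liver and 839, 879 and 888 in bone marrow, with a log2 difference of -0.05.

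The 4 genes with a negative difference were all large subunit genes whose tissues overlapped. Mrpl52 had the most negative one and the widest spread of them. It had 1419, 891 and 1116 normalized counts in the liver libraries and 1349, 1195 and 1233 in those from bone marrow, so liver libraries were both the highest and the lowest of the 6. The log2 difference was -0.16 (SE 0.158, 95% interval -0.53 to 0.20, adjusted p 0.677). Without liver replicate 2 it was 0.00. Mrpl41 had 660, 832 and 769 in liver and 727, 780 and 813 in bone marrow. Mrpl43 had 1041, 1129 and 1158 in liver and 1107, 1125 and 1100 in bone marrow. Their log2 differences, -0.04 and -0.00, and that of Mrpl10 were above 0 without liver replicate 1. Mrpl44, whose protein has a ribonuclease III fold and is altered in a human cardiomyopathy, had 766, 623 and 624 in liver and 696, 669 and 637 in bone marrow. Its log2 difference was 0.00, with a 95% interval of -0.24 to 0.25.

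**Figure D3:**
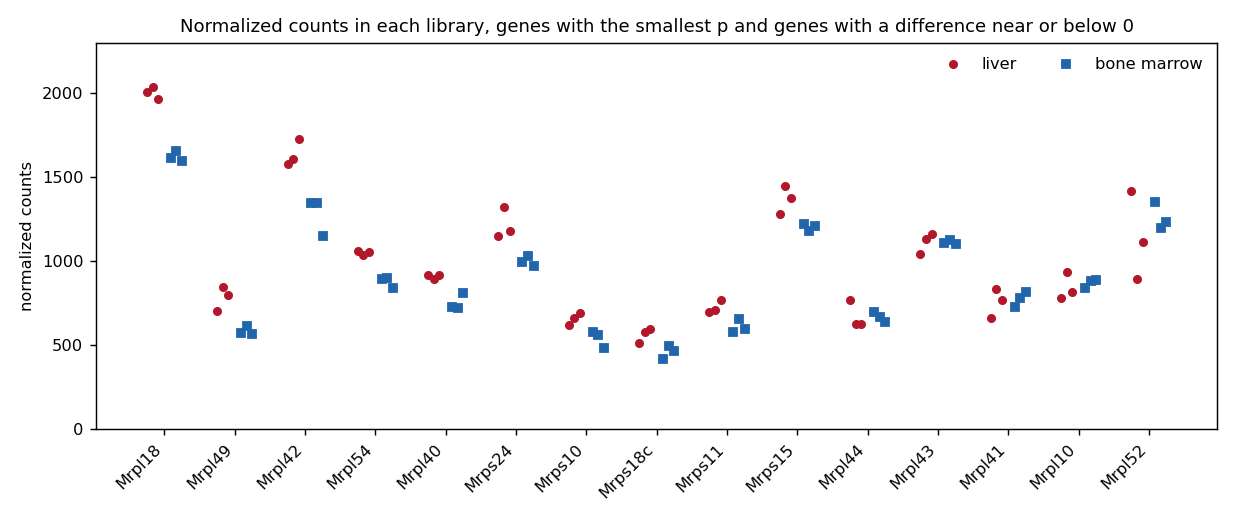
Each point is 1 library (circles liver, squares bone marrow; vertical axis, normalized counts, starting at 0) for 10 genes with the smallest p, 5 from each subunit, and for 5 genes with a difference near or below 0. Circles lie above squares for Mrpl18 to Mrps15 and mix with them for Mrpl44 to Mrpl52.

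In the small subunit, Mrps24 had the smallest p. Its protein is the counterpart of a bacterial one at the side where messenger RNA enters, and the gene lies at chr11:5703983-5715680. It had 1148, 1320 and 1181 normalized counts in liver, against 996, 1028 and 972 in bone marrow. The tissues did not overlap, and the log2 difference was 0.28 (SE 0.077, adjusted p 0.144 in limma). Urgcp, which shares exon bases with it, had a log2 difference of -0.18.

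Genes placed in the head and the platform of the small subunit ran from a log2 difference of 0.06 for Mrps9 to 0.28 for Mrps10. The S18 family was left out of this range and is given below. Mrps10, of the head, had 617, 658 and 691 normalized counts in liver, against 576, 559 and 481 in bone marrow. Mrps11, of the platform, had 695, 708 and 766 in liver and 576, 656 and 596 in bone marrow. Mrps15, also of the platform, had 1279, 1444 and 1374 in liver and 1219, 1178 and 1209 in bone marrow. All 3 were without overlap, with log2 differences of 0.28, 0.25 and 0.18 and adjusted p of 0.237, 0.241 and 0.269 in limma. Mrps7, of the head, had 1423, 1349 and 1311 in liver and 1205, 1125 and 1283 in bone marrow, again without overlap, while Mrps9, of the head as well, had 601, 590 and 550 in liver and 558, 533 and 577 in bone marrow, with overlap. The tissues also overlapped for the platform genes Mrps6 (0.10) and Mrps21 (0.08) and for the head genes Mrps14 (0.18), Mrps31 (0.07), Mrps33 (0.16) and Mrps35 (0.17). Mrps12, the counterpart of a protein of the decoding centre, had 959, 1146 and 1032 in liver and 776, 1000 and 1025 in bone marrow. Bone marrow replicate 1 was the lowest of the 6 and the other bone marrow libraries lay within the liver range, and the log2 difference was 0.17 (adjusted p 0.575).

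The 3 paralogs of the S18 family differed in how far the tissues lay apart. Mrps18c had 513, 580 and 594 normalized counts in liver, against 417, 493 and 462 in bone marrow. Mrps18b had 569, 566 and 502 in liver and 494, 458 and 457 in bone marrow. Both were without overlap, with log2 differences of 0.30 (adjusted p 0.241) and 0.21 (adjusted p 0.324). Mrps18a, the large subunit paralog, had 774, 1011 and 965 in liver and 848, 885 and 842 in bone marrow, where liver replicate 1 was the lowest of the 6. The differences between the paralogs were not tested. Mrps30 had 886, 981 and 895 in liver and 941, 799 and 916 in bone marrow, and Mrps36 had 146, 114 and 110 in liver and 112, 105 and 106 in bone marrow. Both overlapped, with log2 differences of 0.06 and 0.18.

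Mitochondria-specific small subunit genes were all 9 positive, from 0.04 for Mrps25 to 0.20 for Mrps23. Mrps23 had 1033, 1045 and 951 normalized counts in liver, against 837, 867 and 930 in bone marrow, without overlap. Mrps34 had 985, 1079 and 1152 in liver and 954, 956 and 943 in bone marrow, also without overlap. Mrps22, mutated in human disorders of mitochondrial translation, had 404, 337 and 391 in liver and 326, 313 and 381 in bone marrow, with overlap. Mrps31 varied most among the liver libraries, with 240, 424 and 388 in liver and 287, 349 and 336 in bone marrow, a coefficient of variation of 27.8% in liver. The median coefficient of variation over the set was 6.12% in liver and 5.66% in bone marrow.

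Levels between genes were compared as normalized counts per kb of transcript length, with lengths from GENCODE M21, an annotation that is not known to be the authors'. The level per kb had a median of 662 and ran from 137 to 3255 over the 76 genes. Mrpl33 was the highest, at 3273 normalized counts per kb in liver and 3237 in bone marrow. Mrpl20 followed with 2906 in liver and 2820 in bone marrow, then Mrpl52 with 2596 and 2861 and Mrpl36 with 2587 and 2269. In the small subunit Mrps15 (1458 in liver, 1283 in bone marrow), Mrps17 (1329, 1273), Mrps28 (1296, 1185) and Mrps12 (1304, 1164) led. Mrps25 was the lowest, at 139 in liver and 135 in bone marrow, next to Mrpl1 at 161 and 143, Mrps5 at 175 and 155 and Mrps35 at 182 and 162. Mrpl19, Mrps36, Mrpl23 and Mrpl35 also lay at the low end, with 194 to 235 in liver and 169 to 205 in bone marrow. The median was 724 for large subunit and 562 for small subunit genes. The order depends on the annotated length. Mrps25 had 6073 bases and means of 843 normalized counts in liver and 819 in bone marrow. Mrpl33 had 478 bases and means of 1564 and 1547.

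**Figure D4:**
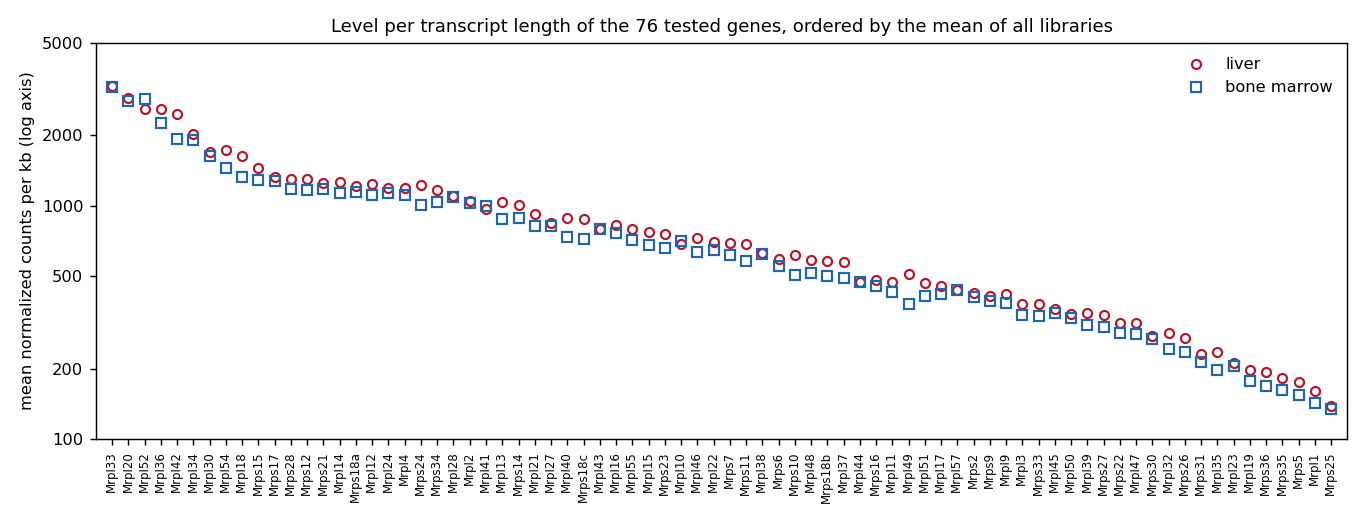
The level of each of the 76 genes as mean normalized counts per kb of transcript (vertical axis, log scale; circles liver, squares bone marrow) is shown in order of the mean over all libraries. Levels run between 3255 per kb for Mrpl33 and 137 for Mrps25, and the gap between tissues is small beside the range between genes.

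Mrpl53 was at 0 in all 6 libraries, below a floor of 3 reads, or 2.23 to 4.26 normalized counts. In GENCODE M21 its exons share bases with Ccdc142os and Gm42688, and how the authors' counting treated shared bases is not known here. The gene nearest to the filter of a mean of 10 normalized counts was Mrps36 with a mean of 115, then Mrpl23 with 144. Reads could also be shared with a pseudogene copy: Mrpl23-ps1 had 13.8, 14.2 and 16.9 normalized counts in liver, against 13.5, 9.42 and 17.8 in bone marrow. The protein also known as Mrpl58 stands in the table as Ict1, which the symbol pattern did not match.

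The genes lay on 17 chromosomes, with 10 on chromosome 11 and 8 on chromosome 17. Of the 77, 33 (42.9%) had the start of another protein-coding gene on the opposite strand within 1000 bases, against 17.2% of 11188 tested protein-coding genes. Mrpl46 and Mrps11, which encode a large and a small subunit protein, start 412 bases apart on opposite strands. Their liver libraries were all above their bone marrow libraries, as given above, and they share exon bases. The 30 other tested neighbours had a median log2 difference of 0.07, with 21 positive and 0 past the threshold. Fau, a cytosolic ribosomal protein gene that starts 59 bases from Mrpl49, had a log2 difference of -0.13 (adjusted p 0.351), and Ndufs6, a respiratory complex I gene 29 bases from Mrpl36, had 0.24 (adjusted p 0.321). The 31 tested genes that share exon bases with another gene had a median log2 difference of 0.17, and the 45 that share none 0.12. Every liver library was above every bone marrow library for 17 (54.8%) and 15 (33.3%) of them, against 11.4% of all genes tested. At an unadjusted p under 0.05 in limma 41.9% and 22.2% were higher in liver, against 7.65%. Of the genes sharing these bases only Actl6a, which overlaps Mrpl47, passed the threshold (0.31, adjusted p 0.0475 in limma). The part of shared reads was not tested.

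Other proteins and factors of mitochondrial translation were set beside the set. The 6 mitoribosome proteins with other names were all positive, with a median log2 difference of 0.15 and 0 past the threshold. Ict1, a peptide-release protein built into the large subunit, had 474, 401 and 508 normalized counts in liver, against 373, 383 and 371 in bone marrow, and Gadd45gip1 had 1271, 1224 and 1226 in liver and 1082, 1056 and 1035 in bone marrow. Assembly factors (16 of 27 positive, median 0.02), translation factors (9 of 15, median 0.02) and tRNA synthetases (15 of 20, median 0.08) had 0 genes past the threshold. The smallest p in each of these lists belonged to the matrix protein C1qbp (log2 difference 0.23, adjusted p 0.0933), the elongation factor Tufm (0.32, adjusted p 0.14) and the tyrosine synthetase Yars2 (0.33, adjusted p 0.097). Regulators of nuclear genes for mitochondria had a median of 0.02 (6 of 10 positive), and Nrf1, which binds the motif searched above, had 0.10 (adjusted p 0.615).

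Those products of the mitochondrial genome that could be tested did not share the positive sign as a set. Of 13 mitochondrially encoded protein genes 8 were tested, 1 was positive and the median log2 difference was -0.15, with 0 past the threshold. The others were 4 genes at 0 in all libraries, mt-Co2, mt-Co3, mt-Atp8 and mt-Nd4l, and mt-Atp6, above 0 only in bone marrow replicate 1 (0.898 normalized counts). Why these read at or near 0 was not tested, so the list covers only a part of the mitochondrial genome. mt-Co1, a subunit of the terminal oxidase, had 18877, 16428 and 17268 normalized counts in liver, against 19740, 18938 and 19744 in bone marrow. The RNA of the small subunit, mt-Rnr1, had 14129, 12149 and 12933 in liver and 14278, 12194 and 12925 in bone marrow, and that of the large subunit, mt-Rnr2, had 67812, 55222 and 59952 in liver and 64475, 54054 and 59302 in bone marrow. Both overlapped between tissues. Whether these lists differ from the mitochondrial ribosomal proteins was not tested.

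Nuclear genes for the respiratory chain had the same sign, with 75 of 81 positive and a median log2 difference of 0.13, as did genes of mitochondrial mass and import, with 18 of 20 positive and a median of 0.14. In the import list Hspe1, a chaperone of the mitochondrial matrix, rose in liver (3105, 2904 and 3075 normalized counts in liver, 2041, 2419 and 2154 in bone marrow, log2 difference 0.46, adjusted p 0.0431 in limma). Cytosolic ribosomal protein genes had the opposite sign, with 6 of 82 positive and a median of -0.10. Beside all of this, proliferation genes had 10 of 10 positive differences, with a median of 0.29 and sums of 34941, 39543 and 37119 in liver against 30547, 30582 and 30018 in bone marrow. Of these 10, 1 passed the threshold, Mcm5, a subunit of the replicative helicase (log2 difference 0.41). Of the 20 import genes 1 did, Hspe1, and over all genes tested 0.42% were called higher in liver. The part of the proliferation genes in the mitochondrial ribosomal protein differences was not tested.

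**Figure D5:**
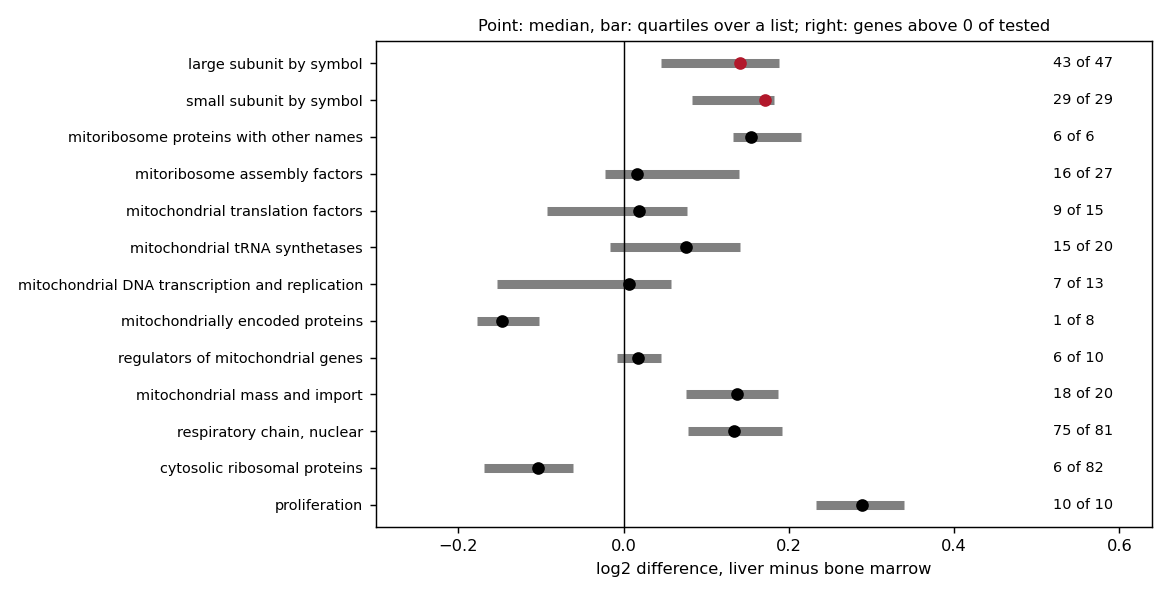
For each list the point is the median and the bar the quartiles of the log2 difference (horizontal axis, liver minus bone marrow), and the figures at the right count genes above 0 among those tested; the mitochondrial ribosomal subunits are in red. Both subunits lie near the respiratory chain and import lists, and the cytosolic ribosomal and mitochondrially encoded lists lie below 0.

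Summed markers of other cells overlapped between tissues for macrophages, hepatocytes and endothelial and stellate cells, and did not for erythroid cells, neutrophils and lymphocytes. Erythroid markers summed to 4275 to 4830 normalized counts in liver and to 6587 to 7284 in bone marrow, with 1 of 9 at 0, and neutrophil markers to 177 to 880 in liver and to 79.9 to 122 in bone marrow, with 1 of 11 at 0. Macrophage and Kupffer cell markers summed to 305 to 621 in liver and 536 to 679 in bone marrow, with Clec4f, Vsig4 and Cd5l at 0. Hepatocyte markers summed to 2310 to 3064 in liver and 2674 to 5703 in bone marrow, nearly all of it Apoa1. Endothelial and stellate markers (700 to 1646 in liver, 1007 to 1451 in bone marrow) and lymphocyte markers (11441 to 11786 in liver, 10383 to 11189 in bone marrow, nearly all of it Nkg7) had Cdh5, Cd3e and Cd4 at 0. The endothelial and stellate sum joined genes of opposite sign. Pdgfrb had 260, 249 and 202 in liver and 664, 363 and 535 in bone marrow (log2 difference -1.10). Pecam1 had 430, 1393 and 1072 in liver and 343, 1076 and 614 in bone marrow (0.50). The largest part of the erythroid sum was Hbb-bt, with means of 2459 in liver and 4508 in bone marrow, and 7 of 8 tested erythroid markers were lower in liver. The part of all these markers in the mitochondrial ribosomal protein values was not tested.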

How the data were processed

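Column-purified RNA was made into low-input libraries with SMARTer cDNA and Nextera XT, per the labels' protocols, a chemistry that does not mark strand. Per the submitters' processing notes, reads passed through bcl2fastq 2.19.0, Trimmomatic 0.36 and STAR 2.6.0c, and DESeq2 1.16.1 was run in R 3.4.1. What genome build, annotation or counter was used is not given here. The deposited signal is a normalized count, that is, the reads of a gene divided by the DESeq2 size factor of its library, per the name of the authors' table. All values (100%) were whole multiples of what 1 read was worth in their library (tolerance 0.01), 0.988 to 1.42 normalized counts in liver and 0.744 to 0.898 in bone marrow, so whole reads were recovered. On them edgeR called 53 genes higher and 82 lower.

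Tissue was tested two-sided by limma 3.58.1 (R 4.3.3) on log2 of the normalized count plus 1, with a trended prior variance and no other covariate. p was adjusted by Benjamini-Hochberg over the 14298 genes whose mean reached 10 normalized counts. The log2 scale understates changes of low genes. Alternatives were quantile normalization or TMM factors, a pseudocount of 0.5 or of 10, the filter dropped or set to 50, edgeR 4.0.16 and DESeq2 1.42.0 on recovered reads, a replicate term, library weights, and leaving out libraries.

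The genes, lists and tests were chosen with earlier results of these data known. A rule named the 8 largest positive and negative differences, the 5 smallest p and the 4 highest and lowest levels per kb in each subunit, and genes of known roles or places, with up to 3 genes of smallest p for other lists. Further genes were added for their roles, places or spread after their values were seen. Positions are from GENCODE M21 on GRCm38, and motif positions count the start as base 0. Floors and intervals on reads cover counting error only. Figures were drawn with matplotlib 3.10.9.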

Additional observations from a re-analysis of the deposited data

How the results depend on the processing

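The sign of the set held under each alternative: 67 to 72 of the 76 tested genes were positive. The count of genes lower in liver was 0 in all fits. The count higher in liver, 0 as reported, was 3 with DESeq2 on recovered reads, 1 with the replicate block (Mrpl18, adjusted p 0.04 in limma; 1.41% of all genes were higher), 31 with library weights and 0 to 1 when 1 library was left out. With both replicate 3 libraries left out it was 0, with a lowest adjusted p of 0.873, and with the replicate block added to that, a fit chosen after seeing the data, it was 0 with a lowest adjusted p of 0.408. Same-numbered libraries of the tissues deviated together for numbers 1 and 2 (correlations of 0.443 and 0.399, against -0.44 and -0.38 when crossed). Number 3 did not (0.0578), and liver replicate 3 correlated best with bone marrow replicate 2 (0.151). On the main axis of variation between libraries, replicate 3 lay between 1 and 2 (8.95 between -57.3 and 42.5 in liver, 4.21 between -26.1 and 27.8 in bone marrow). A library near the middle has little deviation to correlate, so this check cannot decide whether the numbers pair the samples. Sex-linked transcripts did follow the numbers in both tissues, as did the order on the main axis. Xist was 6229, 1.42 and 2425 in liver replicates 1 to 3 and 4860, 4.28 and 2486 in those of bone marrow. The Y-linked sums were 0, 2675 and 1634 in liver and 145, 2987 and 1553 in bone marrow. Whether same-numbered libraries share a source was not tested. The replicate block was kept as an alternative only, so the reported counts are from the fit without it. The median log2 difference of large subunit genes was 0.12 to 0.17 and that of small subunit genes 0.13 to 0.19 when 1 library was left out, and their difference -0.04 to 0.00. With library weights that difference was 0.034. Of the 76 genes 19 changed sign in some fit, with reported differences between -0.16 and 0.10, 9 of them among the 34 tested genes that the naming rule picked: Mrpl44 with TMM factors (-0.006), without liver replicate 1 (-0.098), without bone marrow replicate 3 (-0.031) and with library weights (-0.057). Mrpl10 (0.006), Mrpl23 (-0.029), Mrpl41 (0.05), Mrpl43 (0.042) and Mrps17 (-0.004) did so without liver replicate 1, Mrpl52 (0.002) without liver replicate 2, and Mrpl43 (0.006), Mrps17 (-0.001) and Mrps30 (-0.014) without bone marrow replicate 2. Mrpl23 (-0.042) did so without bone marrow replicate 3, Mrpl20 (-0.01) and Mrpl23 (-0.012) without both replicate 3 libraries, with and without the block, and Mrpl43 (0.057) with library weights. The other 10 were Mrpl2, Mrpl24, Mrpl28, Mrpl38, Mrpl50, Mrpl57, Mrps6, Mrps9, Mrps16 and Mrps31, at -0.082 to -0.002 in those fits. Over the 34 genes, of 612 comparisons 573 kept sign and side of the threshold, 20 passed it and 19 changed sign. Over the fits without 1 library these ran to -0.126 for Mrpl10, 0.151 for Mrpl23, -0.117 for Mrpl41, -0.035 for Mrpl43, 0.051 for Mrpl44, -0.333 for Mrpl52, 0.136 for Mrps17 and 0.104 for Mrps30 at their other end. The causes were not tested. Other scalings moved the median over all genes by under 0.1. Counting error weighs most on the lowest genes: the fewest reads of a tested gene were 319 over the liver libraries and 390 over the bone marrow libraries. The 3 libraries a tissue gave standard errors with a median of 0.08 on the log2 scale.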
